A study of Mus musculus with 9 samples.

Results

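The 36 genes described here encode subunits of the Polycomb repressive complexes. They were chosen by gene symbol as subunits of these complexes, with no threshold on a measured value, and all 36 were found among the 54232 gene rows of the expression table. The series followed gene expression while wild-type mouse embryonic stem cells differentiated as embryoid bodies, floating balls of cells whose members leave pluripotency and form endoderm, mesoderm and ectoderm. Polyadenylated RNA was sequenced from the groups EBD2, EBD5 and EBD6 (3 libraries per group), all of wild-type genotype, and the labels name no agent beside the differentiation. The labels name embryonic stem cells as the cell type. The groups are taken in the order of their names, since the labels do not say what the number stands for. They do not say either which stem cell line or strain was used, or whether replicates were grown separately. The p-values therefore rest on the spread between samples that may be technical repeats.

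Polycomb complexes keep genes silent by marking histones. Polycomb repressive complex 2 (PRC2) methylates histone H3 at K27, and Polycomb repressive complex 1 (PRC1) ubiquitinates histone H2A at K119. Canonical PRC1 reads the PRC2 mark through a CBX protein and compacts chromatin through PHC proteins, whereas variant PRC1 carries RYBP or YAF2 and does not need that mark. In embryonic stem cells both complexes sit at CpG-rich promoters of developmental regulators, and most subunits exist as paralogs, several of which are known to replace each other as cells differentiate.

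The libraries held 5454268 to 11704761 counts. In EBD2 the libraries of replicates 1 and 2, and in EBD6 those of replicates 2 and 3, did not differ by more than the sampling noise (mean chi-square of a gene 0.949 and 1.01). Either pair was summed to a single sample, so that n is 2 for EBD2, 3 for EBD5 and 2 for EBD6. The EBD5 libraries stood apart in 3 classes of RNA. Nuclear ribosomal RNA took 0.726% to 0.811% of their counts against at most 0.0247% in any other library, mitochondrial ribosomal RNA 0.520% to 0.546% against at most 0.0168%, and processed pseudogenes 1.12% to 1.14% against at most 0.347%. All 6 pluripotency markers examined, among them Pou5f1, Sox2 and Nanog, were detected in every group, with a summed level of 1226 to 1394 normalised counts (CPM, library size scaled by TMM) in EBD2, 911 to 1020 CPM in EBD5 and 783 to 901 CPM in EBD6. The summed level of 7 visceral endoderm markers was 39.8 to 40.1 CPM in EBD2, 2307 to 2346 CPM in EBD5 and 1280 to 1366 CPM in EBD6. Summed levels of the trophoblast markers were 42.6 to 43.4 CPM in EBD2, 54.2 to 60.2 CPM in EBD5 and 142 to 143 CPM in EBD6, and Cdx2 and Prl3d1 were at 0 in EBD2. Those of the neuroectoderm markers were 174 to 189 CPM, 94.6 to 99.5 CPM and 244 to 258 CPM, and those of the mesoderm and endothelium markers 165 to 166 CPM, 69.4 to 72.7 CPM and 226 to 235 CPM in the same order. Fibroblast markers summed to 24.6 to 24.8 CPM in EBD2, 16.9 to 22.3 CPM in EBD5 and 44.0 to 54.2 CPM in EBD6, with Postn at 0 in EBD2. Several of these sums do not speak for each of their markers. From EBD2 to EBD5, 3 of the 6 mesoderm and endothelium markers rose and 2 fell (median log2 change 0.67). In the same comparison 2 fibroblast markers rose and 1 fell (0.38), and 1 pluripotency marker rose and 2 fell (-0.22). Of the neuroectoderm markers 1 rose and 4 fell (-0.60), and of the trophoblast markers 3 rose and 1 fell (0.24). From EBD5 to EBD6, 3 visceral endoderm markers rose and 3 fell (0.19). The marker sums moved between the same groups as the Polycomb genes, and their part in the changes below was not tested. In bulk RNA, fewer cells of a type and less RNA per cell cannot be told apart.

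Polycomb subunits spanned a wide range of levels, and every subunit was detected in every sample. Because longer genes give more counts, levels of different genes are compared here as CPM per kilobase of exon. In EBD2 the highest level per kilobase was that of Phc1, a polyhomeotic subunit of canonical PRC1, at 112 ± 5.42 (mean ± SD, n = 2). It was followed by Rbbp7, a histone-binding subunit shared with other complexes, at 89.2 ± 10.9 (n = 2), Mtf2, which helps to bring PRC2 to CpG islands, at 69.6 ± 5.88 (n = 2), and Suz12, the scaffold of PRC2, at 64.4 ± 2.36 (n = 2). Mtf2 and Suz12 did not differ beyond their spread. At the other end were Cbx8 at 1.18 ± 0.447 (n = 2) and Scml2 at 1.38 ± 0.0158 (n = 2), which overlapped as well. In EBD5 Rbbp7 at 114 ± 12.1 and Phc1 at 103 ± 1.53 (n = 3) overlapped. In EBD6 the order at the top had changed: Rbbp7 led at 110.1 ± 13.6 (n = 2), followed by Phc1 at 59.1 ± 1.80 (n = 2). The median over the 36 genes moved little, from 19.98 per kilobase in EBD2 to 17.5 in EBD5 and 19.0 in EBD6. With the length of the longest transcript in place of the union of exons, the level per kilobase of 12 genes moved by more than 1.5 times. Phc1 stayed first in EBD2 and Rbbp7 in EBD6. Below them the order changed: Ezh2 passed Suz12 in EBD2 (84.0 against 72.8) and Phc1 in EBD6 (95.8 against 74.3).

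**Figure D1:**
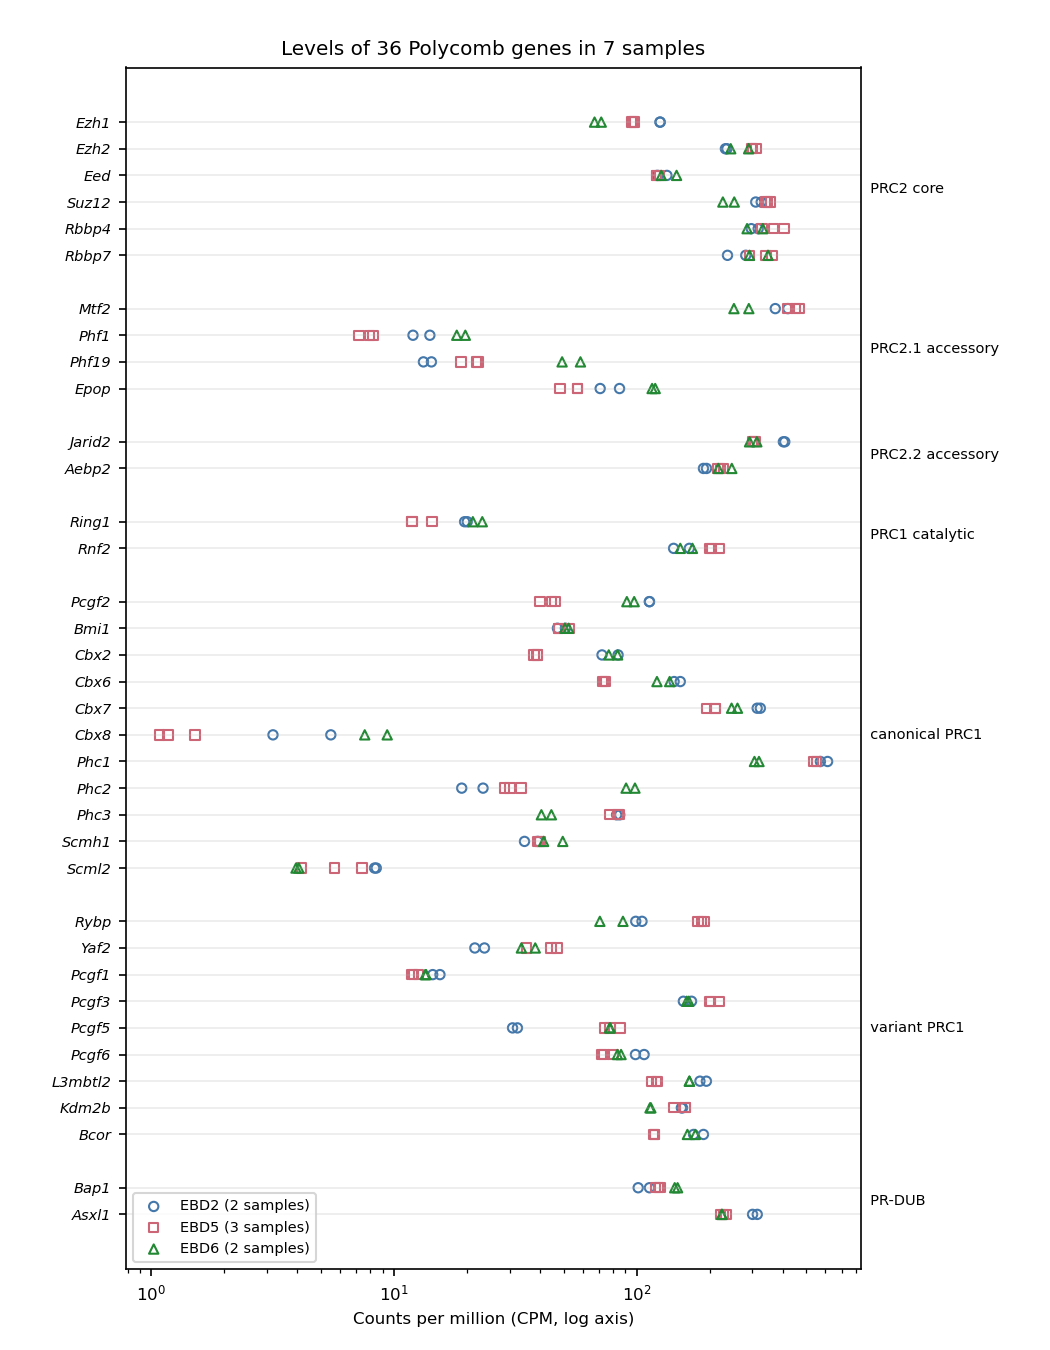
Level of each of the 36 Polycomb genes (rows, grouped by complex) in CPM on a log axis, not corrected for gene length, so that points are compared along a row. Circles are the 2 EBD2 samples, squares the 3 EBD5 samples and triangles the 2 EBD6 samples; in their rows, the EBD6 samples of Phc2 and Phf19 lie to the right of all others, and those of Phc1, Phc3 and Ezh1 to the left.

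Between EBD2 and EBD6 the largest rises were those of Phc2, Phf19 and Pcgf5 and the largest falls those of Scml2, Phc3, Phc1 and Ezh1. Thus a minor polyhomeotic paralog rose while both others fell, and a minor paralog of the PRC2 partner Mtf2 rose while Mtf2 itself fell. The core subunits Eed, Rbbp4 and Ezh2 did not pass the test. By edgeR's quasi-likelihood test at an adjusted p under 0.05, 11 of the 36 were higher and 15 lower. This is 72.2% of the genes, against 66.1% of all 16168 genes tested, 33.8% higher and 32.3% lower, so the number of Polycomb genes called was near that of any other genes. The groups did not overlap in 29 of the 36 (80.6%), the same share as over all genes (80.6%). The median log2 change of the 36 was 0.00, against 0.01 over all genes. When the test asked for a change beyond 1.5-fold, the 7 genes named first passed, 3 higher and 4 lower, or 19.4% against 30.4% of all genes (16.4% higher and 14.0% lower). Adjusting for GC content and length, described below, kept the direction and the call of all 26. The calls of some small changes were lost when single libraries were left out. Without EBD6 replicate 1, the calls of Rbbp7 (log2 change 0.20), Cbx6 (-0.087) and L3mbtl2 (-0.16) were lost, and without EBD2 replicate 3 those of Cbx6 (-0.22), L3mbtl2 (-0.15), Pcgf6 (-0.23) and Scmh1 (0.24). The calls of Cbx6 and Rbbp7 were also lost without EBD5 replicate 1 (-0.18 and 0.30) or 3 (-0.18 and 0.30). These EBD5 libraries are not part of this comparison, and the full fit gave the same changes, -0.18 and 0.30. The call of Cbx6 was lost as well without EBD2 replicate 2 (-0.14) or EBD6 replicate 3 (-0.17). DESeq2 did not call Cbx8 (adjusted p = 0.075), Phf1 (0.081), L3mbtl2 (0.074), Scmh1 (0.11) or Cbx6 (0.12) in this comparison.

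**Figure D2:**
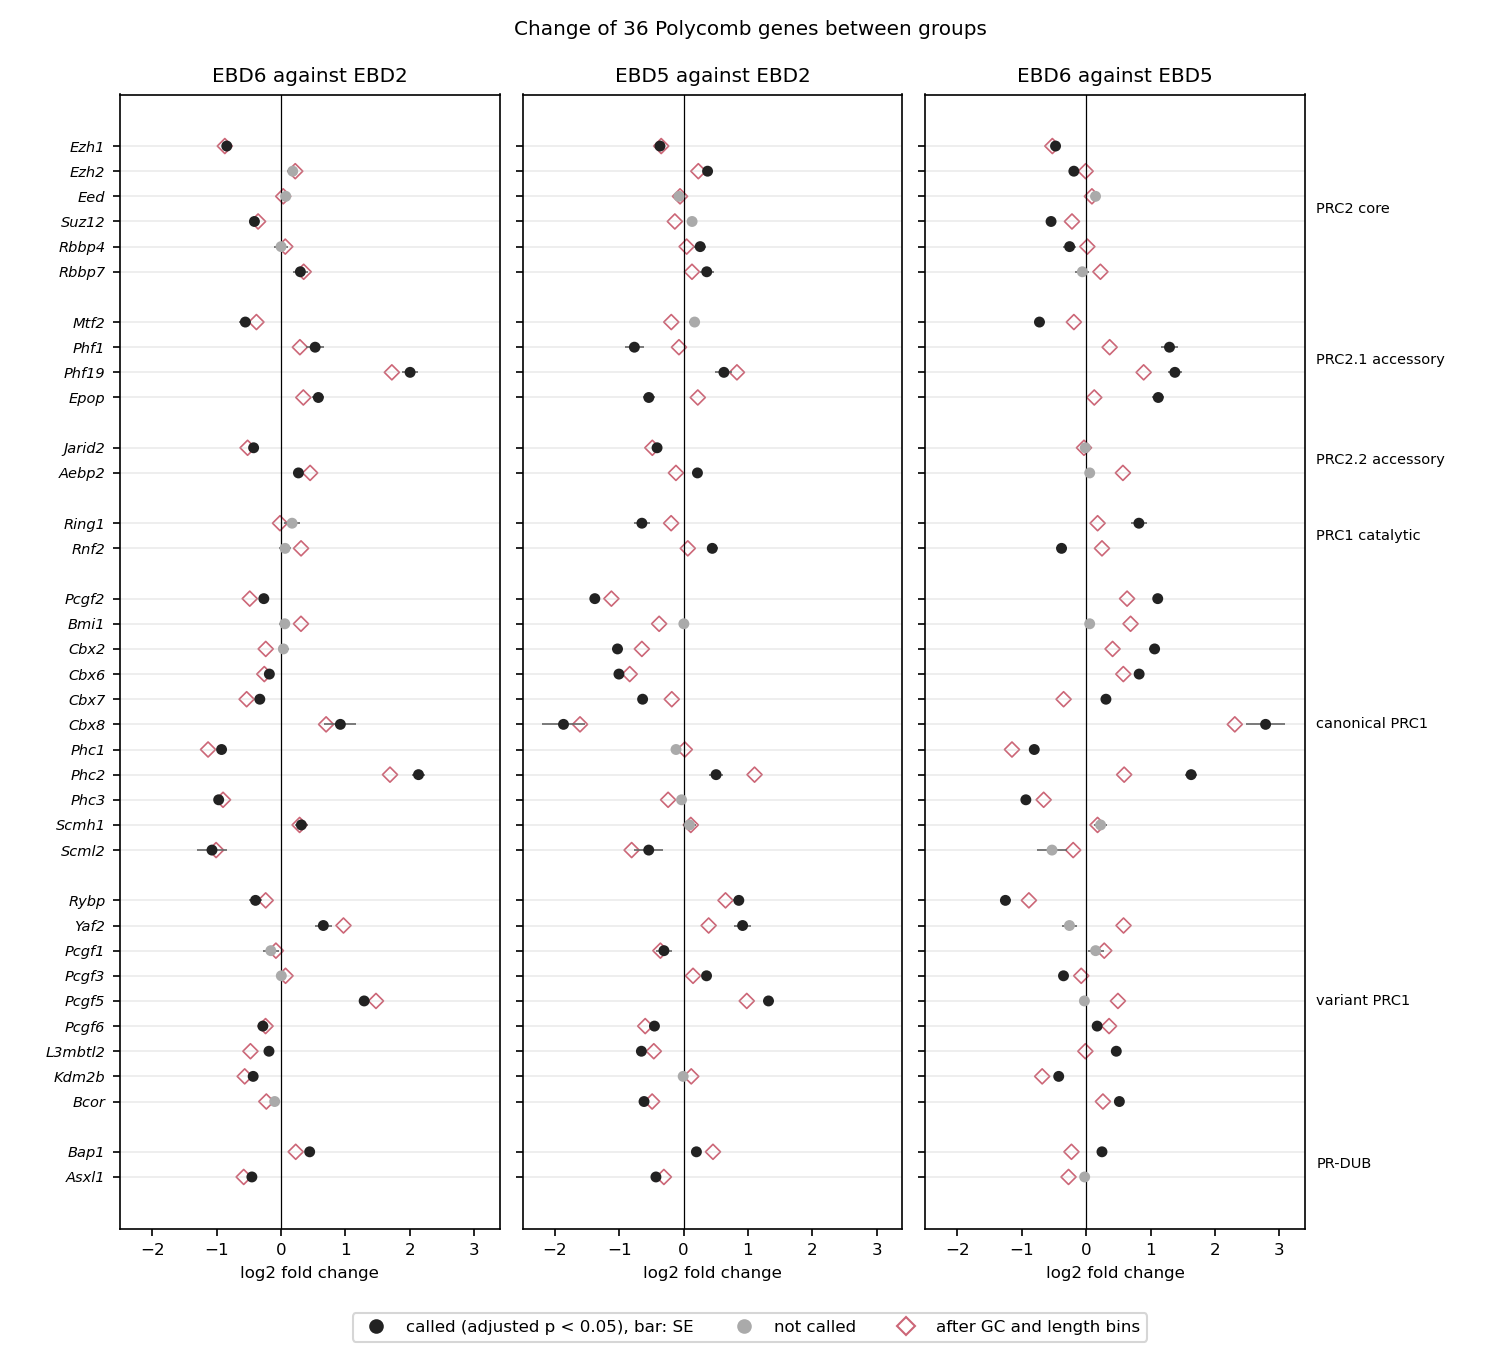
Log2 fold change of each Polycomb gene (rows, grouped by complex) in the 3 comparisons, with filled points for the edgeR estimate (black where the adjusted p was under 0.05, grey otherwise, bar: SE) and open diamonds for the estimate after GC and length bins. Diamonds lie close to the points for EBD6 against EBD2 and further from them in both comparisons with EBD5, as for Epop, Phf1, Ring1 and Rnf2.

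From EBD2 to EBD5, genes of canonical PRC1 fell more often than they rose. Of its 11 subunits 6 fell, among them Cbx8, Pcgf2, Cbx2 and Cbx6 by at least 2.005-fold, and 1, Phc2, rose. Of the 9 variant PRC1 subunits 4 rose and 4 (L3mbtl2, Bcor, Pcgf6 and Pcgf1) fell, with a median log2 change of -0.0055. The largest rises of the 36 were among them, where Pcgf5, Yaf2 and Rybp gained 2.50-fold, 1.89-fold and 1.81-fold. After the GC and length bins described below the order differed, with Phc2 first (1.10 on the log2 scale), then Pcgf5 (0.98), Phf19 (0.83), Rybp (0.65) and Yaf2 (0.39). Over all 36 genes 12 were higher and 16 lower by edgeR's test, which is 77.8% against 70.0% of all genes tested (34.9% higher and 35.1% lower). The groups did not overlap in 30 of the 36 (83.3%), against 81.2% of all genes, so neither count set the Polycomb genes apart. The median log2 change was -0.05, against -0.01 over all genes, and 7 genes passed beyond 1.5-fold (19.4%, against 34.7% of all genes): Cbx8, Pcgf2, Cbx2 and Cbx6 lower (16.3% of all genes) and Pcgf5, Yaf2 and Rybp higher (18.4%). The smallest calls were not stable. That of Pcgf1 was lost without any 1 of the EBD2 or EBD5 libraries (adjusted p of 0.0609 to 0.153) and that of Scml2 without EBD2 replicate 2 or 3, EBD5 replicate 2 or 3 or EBD6 replicate 3 (0.0505 to 0.150). Rbbp4 was lost without EBD2 replicate 3 (0.0597), EBD5 replicate 1 (0.0567) or EBD5 replicate 3 (0.119), and Rbbp7 (0.0541) and Aebp2 (0.0509) without EBD5 replicate 3. EBD6 replicate 3 is not part of this comparison, and without it the log2 change of Scml2 stayed at -0.54. DESeq2 did not call Pcgf1 (adjusted p = 0.31), Scml2 (0.20) or Bap1 (0.058).

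From EBD5 to EBD6, 6 of the 11 canonical PRC1 subunits rose, again with Cbx8, Pcgf2, Cbx2 and Cbx6 among them, and Phc1 and Phc3 fell. Rybp fell by 2.38-fold, more than any other of the 36 (after the bins Phc1 fell most, -1.15 against -0.89 on the log2 scale). Of the 6 PRC2 core subunits 4 fell, by 1.14-fold to 1.46-fold. After the bins Ezh1 (-0.52) and Suz12 (-0.22) were still called lower, while Ezh2 (-0.0076) and Rbbp4 (0.0190) were no longer called. In all, 14 genes were higher and 11 lower, which is 69.4% against 70.2% of all genes tested (36.9% higher and 33.3% lower). The groups did not overlap in 28 of the 36 (77.8%), against 78.3% of all genes. The median log2 change was 0.06, against 0.04 over all genes. Beyond 1.5-fold, 9 were higher and 3 lower (33.3% of the genes, against 32.9% of all, 17.6% higher and 15.3% lower), namely Cbx8, Phc2, Phf19, Phf1, Epop, Pcgf2, Cbx2, Cbx6 and Ring1, and Rybp, Phc3 and Phc1. Calls near the threshold were lost when single libraries were left out. That of Ezh2 was lost without EBD2 replicate 3 (adjusted p = 0.0584), EBD5 replicate 1 (0.0701) or 3 (0.106) or EBD6 replicate 3 (0.0562), and that of Rbbp4 without EBD5 replicate 1 (0.0584) or 3 (0.122). The call of Pcgf6 was lost without EBD2 replicate 2 (0.0707) or 3 (0.0578), EBD5 replicate 1 (0.142) or 3 (0.153) or EBD6 replicate 1 (0.0772) or 2 (0.0561), and DESeq2 did not make it (0.28). Without EBD2 replicate 3, which is not part of this comparison, the log2 change of Ezh2 stayed at -0.19 and that of Pcgf6 at 0.17. Both comparisons with EBD5 share its 3 samples, so opposite changes in them are not independent observations.

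GC content moved with the changes that involve EBD5. Across the 36 genes, the GC content of the longest transcript and the log2 change had a Spearman rho of -0.58 for EBD5 against EBD2, 0.75 for EBD6 against EBD5 and 0.26 for EBD6 against EBD2. Across 13746 protein-coding genes it was -0.37, 0.56 and 0.17. Genes share libraries and are not independent replicates, so these are descriptions only. To show how much of each change is shared by genes of like composition, the median change of genes in the same bin of GC content and length was subtracted and the test was run again. For EBD5 against EBD2 this left 7 higher and 16 lower (63.9%, against 67.5% of all genes, 33.6% higher and 33.9% lower). The 20 calls that were kept in direction included Cbx8, Pcgf2, Cbx2, Cbx6, Pcgf5, Rybp, Phf19 and Phc2. The calls of Rbbp4, Rbbp7, Phf1, Epop, Aebp2, Ring1, Rnf2 and Pcgf3 were lost, and Mtf2 (-0.19), Bmi1 (-0.38) and Phc3 (-0.24) were newly called lower. For EBD6 against EBD5, 15 were higher and 10 lower (69.4%, against 62.3% of all genes, 31.4% higher and 30.9% lower). Here 16 calls were kept, those of Ezh2, Rbbp4, Epop, Ring1, Pcgf3 and L3mbtl2 were lost, and 3 turned: Cbx7 from 0.31 to -0.35, Rnf2 from -0.38 to 0.25 and Bap1 from 0.25 to -0.23. Newly called were Bmi1 (0.69), Yaf2 (0.58), Aebp2 (0.57), Pcgf5 (0.49) and Pcgf1 (0.28), higher in EBD6, and Asxl1 (-0.27), lower. For EBD6 against EBD2, 14 were higher and 17 lower (86.1%, against 66.6% of all genes, 32.7% higher and 33.9% lower). The 5 new calls were Rnf2 (0.31), Bmi1 (0.31) and Ezh2 (0.22), higher in EBD6, and Cbx2 (-0.24) and Bcor (-0.23), lower. Whether GC content itself set these changes was not tested.

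**Figure D3:**
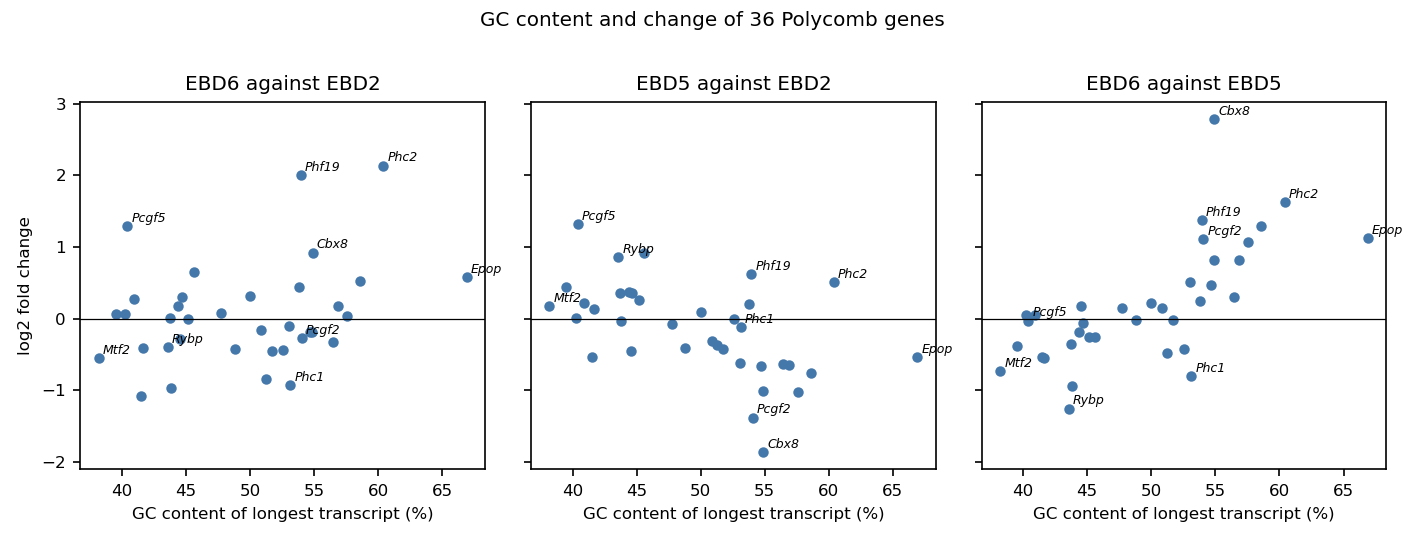
Log2 fold change of the 36 Polycomb genes (y axis) against the GC content of the longest transcript in percent (x axis), 1 panel per comparison and 1 point per gene. Points slope down for EBD5 against EBD2 (rho -0.58) and up for EBD6 against EBD5 (rho 0.75), with little slope for EBD6 against EBD2 (rho 0.26).

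In the core of PRC2, Ezh1 fell from EBD2 to EBD5 and again to EBD6, and its paralog Ezh2 was highest in EBD5. Ezh1 and Ezh2 are the alternative methyltransferases of the complex, of which Ezh2 is the more active and marks dividing cells. Ezh1 (chr11:101191115-101226463, minus strand of mm10) stood at 125 and 125 CPM in the EBD2 samples, 95.4, 97.3 and 98.3 CPM in EBD5 and 67.1 and 71.5 CPM in EBD6. No sample of a group overlapped another group, and the log2 change from EBD2 to EBD6 was -0.84 (SE 0.06, adjusted p = 6.7e-07). Its change from EBD2 to EBD5 (-0.37, SE 0.06, adjusted p = 0.00019) and that from EBD5 to EBD6 (-0.48, SE 0.06, adjusted p = 3.3e-05) both passed. Ezh2 was at 232 and 236 CPM in EBD2, 299, 300.4 and 311 CPM in EBD5 and 244 and 289.8 CPM in EBD6. All EBD5 samples were above the rest, and the EBD6 samples lay between, closer to EBD2 in 1 case and to EBD5 in the other. The rise of Ezh2 to EBD5 was 0.37 (SE 0.08, adjusted p = 0.0011), while from EBD2 to EBD6 its log2 difference of 0.18 (SE 0.08, adjusted p = 0.070) missed the threshold. This difference was called after the GC and length bins (0.22, adjusted p = 0.029), with no expression filter (0.23, 0.0061), without EBD2 replicate 1 (0.22, 0.038) and without EBD6 replicate 3 (0.21, 0.036).

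Suz12, on which the catalytic lobe of PRC2 is assembled, was at 310 and 326 CPM in EBD2, 341, 348 and 357 CPM in EBD5 and 227 and 253 CPM in EBD6. Both EBD6 samples were below all others, a log2 change of -0.41 from EBD2 (SE 0.07, adjusted p = 0.00050) and of -0.54 from EBD5 (SE 0.07, adjusted p = 3.1e-05). Eed, which binds the methyl mark and stimulates the enzyme, was the steadiest core subunit. It was at 128 ± 8.16 CPM in EBD2 (n = 2), 122 ± 2.02 in EBD5 (n = 3) and 136 ± 14.0 in EBD6 (n = 2), with log2 differences of at most 0.15 and no call in any comparison. Rbbp4 and Rbbp7, histone chaperones that PRC2 shares with histone deacetylase and chromatin assembly complexes, had a larger spread between samples. Rbbp7 rose from 260 ± 31.7 CPM in EBD2 (n = 2) to 332 ± 35.3 in EBD5 (n = 3) and was at 320 ± 39.7 in EBD6 (n = 2). Rbbp4 was at 307 ± 14.3, 367 ± 38.7 and 309 ± 32.5 CPM in the same order.

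PRC2.1 is the form of the complex that carries a Polycomb-like protein. Among these proteins the minor ones rose from EBD2 to EBD6 and the main one fell. Mtf2, Phf1 and Phf19 are paralogs that bind CpG-rich DNA through a winged helix and histone H3 through a Tudor domain. Phf19 (chr2:34893757-34914026, minus strand) was at 13.2 and 14.3 CPM in EBD2, 18.9, 21.9 and 22.2 CPM in EBD5 and 49.3 and 58.7 CPM in EBD6. The 3 groups did not overlap and rose in that order. The change from EBD2 to EBD6 was 4.02-fold (log2 2.01, SE 0.12, adjusted p = 1.4e-07), or 1.72 on the log2 scale after GC and length bins. Mtf2 (chr5:108065674-108109004, plus strand) was at 373 and 421 CPM in EBD2, 420.5, 452 and 467 CPM in EBD5 and 252 and 290.3 CPM in EBD6. Only the EBD6 samples lay apart from the rest, with a log2 change of -0.55 from EBD2 (SE 0.09, adjusted p = 0.00030). The fall of Mtf2 from EBD5 to EBD6, -0.73 (SE 0.09, adjusted p = 2.0e-05), shrank to -0.19 after the bins but remained called.

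Phf1 and Epop were lowest in EBD5 and highest in EBD6. Phf1 was at 11.98 and 14.1 CPM in EBD2, 7.18, 7.91 and 8.19 CPM in EBD5 and 18.1 and 19.7 CPM in EBD6, and the groups did not overlap. Its change from EBD2 to EBD6 was 0.53 on the log2 scale (SE 0.14, adjusted p = 0.0049), and its fall into EBD5 (-0.76) became -0.07 after the bins and was no longer called. Of its exons 39.3% lie over those of Cuta on the other strand, which had 1625 counts against 935, and whether the counting used strand is not known, so the 2 genes may share reads. Epop, which links PRC2.1 to elongin and is known from embryonic stem cells, was at 77.9 ± 10.1 CPM in EBD2 (n = 2), 54.2 ± 5.05 in EBD5 (n = 3) and 117.6 ± 2.45 in EBD6 (n = 2). Its rise from EBD2 to EBD6 was 0.58 (SE 0.10, adjusted p = 0.00027), while its dip in EBD5 (-0.54) became 0.22 after the bins and was no longer called. Epop has the highest GC content of the 36 genes, 66.9%. Per kilobase of exon, Epop was below Mtf2 in EBD2 (33.7 against 69.6). In EBD6 they overlapped (50.8 ± 1.06 against 47.6 ± 4.75, n = 2). With the length of the longest transcript, Epop was below Mtf2 in EBD6 too (50.8 against 66.8).

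The partners of PRC2.2 moved in opposite directions. Jarid2, which lacks demethylase activity and guides PRC2 to chromatin, fell from 403 and 408 CPM in EBD2 to 300, 307 and 308 CPM in EBD5 and stood at 292 and 313 CPM in EBD6. Both EBD2 samples were above all others, and the log2 change to EBD6 was -0.42 (SE 0.07, adjusted p = 0.00020). Aebp2, a zinc finger protein that stabilises PRC2, was at 191 ± 3.91 CPM in EBD2 (n = 2), 222 ± 5.69 in EBD5 (n = 3) and 232 ± 21.1 in EBD6 (n = 2), a rise of 0.27 to EBD6 (SE 0.07, adjusted p = 0.0073). Its call from EBD2 to EBD5 was lost after the bins (-0.12).

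The promoters of the PRC2 genes are shown for the genes that share a sequence motif. Start windows from 250 bases before to 50 bases after the RefSeq gene start (GRCm38.p6) were found for 31 of the 36 genes, 44 windows in all. They held a median of 23 CpG dinucleotides, against 7 over all 32851 windows. Motifs of the E2F family, factors that drive the genes of dividing cells, were searched on both strands in 3 spellings, TTTGGCGC (present in 0.514% of all windows), TTTCGCGC (0.323%) and TTTCCCGC (1.07%), at least 1 of which was in 1.84% of all windows. Ezh2 held the first, no Polycomb gene the second, and Phf19 and Suz12 the last. Printed 5′ to 3′ on the strand of the gene, with the motif or its reverse complement in capitals, are the 250 bases before the start of Phf19 (chr2:34913977-34914226, minus strand), where it begins 208 bases before the start, and of Suz12 (chr11:79992856-79993105, plus strand), where it begins 219 bases before the start.
Phf19: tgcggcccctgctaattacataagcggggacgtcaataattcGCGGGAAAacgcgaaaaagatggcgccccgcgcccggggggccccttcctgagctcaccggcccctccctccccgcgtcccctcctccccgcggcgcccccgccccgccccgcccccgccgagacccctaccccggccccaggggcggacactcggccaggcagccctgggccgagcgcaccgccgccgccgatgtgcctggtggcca
Suz12: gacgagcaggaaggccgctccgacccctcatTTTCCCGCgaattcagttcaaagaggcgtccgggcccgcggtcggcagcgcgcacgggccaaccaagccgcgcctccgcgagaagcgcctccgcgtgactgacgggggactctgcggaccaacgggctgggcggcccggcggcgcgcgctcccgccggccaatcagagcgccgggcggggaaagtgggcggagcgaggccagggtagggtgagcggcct
The genes that carry these letters did not move together. From EBD2 to EBD6 Phf19 rose by 2.01 on the log2 scale, Suz12 fell by 0.41, and Ezh2 differed by 0.18 without passing the test. A match is a description of the letters only.

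The catalytic subunits of PRC1 did not pass the test between EBD2 and EBD6, and in EBD5 they stood apart in opposite directions. Rnf2 (Ring1b), the main ubiquitin ligase of PRC1 in stem cells, was at 142 and 165 CPM in EBD2, 200, 204 and 220 CPM in EBD5 and 151 and 170 CPM in EBD6. Its EBD5 samples were above all others, and the log2 difference of EBD6 from EBD2 was 0.06 (SE 0.09, adjusted p = 0.54). Its paralog Ring1 was at 19.5 and 20.04 CPM in EBD2, 11.9, 11.9 and 14.4 CPM in EBD5 and 21.1 and 23.1 CPM in EBD6. Here the EBD5 samples were below all others, and the difference of EBD6 from EBD2 was 0.17 (SE 0.12, adjusted p = 0.23). The opposite excursions of the paralogs in EBD5 (0.45 and -0.65 from EBD2) shrank to 0.07 and -0.19 after GC and length bins and were no longer called. After the bins Rnf2 was instead called higher in EBD6 than in EBD2 (0.31, adjusted p = 0.0038). GC content is 39.5% in Rnf2 and 56.9% in Ring1.

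In canonical PRC1 the largest change from EBD2 to EBD6 was the rise of Phc2 beside a fall of Phc1 and Phc3, the other polyhomeotic genes, whose SAM domains join PRC1 complexes into larger assemblies. Phc1 (chr6:122317731-122340561, minus strand) was at 573 and 613 CPM in EBD2, 537, 551 and 552 CPM in EBD5 and 306 and 320 CPM in EBD6. The EBD6 samples lay well below all others, a log2 change of -0.92 from EBD2 (SE 0.07, adjusted p = 8.9e-07), and the difference of EBD5 from EBD2 (-0.12, adjusted p = 0.13) missed the threshold. Phc2 (chr4:128654702-128752881, plus strand) was at 19.0 and 23.3 CPM in EBD2, 28.6, 30.1 and 33.4 CPM in EBD5 and 90.5 and 98.5 CPM in EBD6. The 3 groups did not overlap and rose in that order, in all by 4.40-fold (log2 2.14, SE 0.11, adjusted p = 3.3e-08), the largest change of the 36 in this comparison. Phc3 was at 82.8 and 85.2 CPM in EBD2, 77.8, 83.9 and 85.2 CPM in EBD5 and 40.5 and 44.5 CPM in EBD6. Like Phc1 it was low only in EBD6 (-0.97 from EBD2, SE 0.08, adjusted p = 1.3e-06). After the bins these changes from EBD2 to EBD6 were -1.13 for Phc1, 1.69 for Phc2 and -0.90 for Phc3, all still called, and the further rise of Phc2 from EBD5 to EBD6 shrank from 1.63 to 0.59.

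The RefSeq start windows of Phc1 and Phc2 are shown because the genes moved in opposite directions. That of Phc1 held 9 CpG dinucleotides in 300 bases. It lies within the gene as placed by GENCODE, whose minus-strand start is at 122340561, and so downstream of that start. Of the 3 start windows of Phc2, the third held 45, more than 98.1% of all windows, and the others held 19 and 2. The count of Phc1 lies between those of Phc2, and the counts per gene do not say which start was used. A difference in CpG content between the genes is therefore not shown. The 250 bases before the start are printed 5′ to 3′ on the strand of the gene with each CG in capitals, 8 in Phc1 (chr6:122340228-122340477, minus strand) and 34 in the third window of Phc2 (chr4:128727321-128727570, plus strand).
Phc1: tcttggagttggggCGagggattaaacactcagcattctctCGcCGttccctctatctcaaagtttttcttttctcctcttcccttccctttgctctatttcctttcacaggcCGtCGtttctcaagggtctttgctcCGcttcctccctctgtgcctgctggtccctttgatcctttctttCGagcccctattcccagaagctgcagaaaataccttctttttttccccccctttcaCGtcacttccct
Phc2: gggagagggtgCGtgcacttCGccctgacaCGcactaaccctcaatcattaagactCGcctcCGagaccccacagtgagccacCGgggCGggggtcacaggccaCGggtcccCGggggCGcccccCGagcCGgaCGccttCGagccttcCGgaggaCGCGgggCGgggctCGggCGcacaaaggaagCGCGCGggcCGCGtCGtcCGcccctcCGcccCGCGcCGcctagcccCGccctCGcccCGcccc

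The CBX subunits, which recognise methylated H3K27, were all lowest in EBD5. Cbx7, the main CBX protein of stem cells, was at 314 and 324 CPM in EBD2, 194, 211 and 212 CPM in EBD5 and 246 and 261 CPM in EBD6. The groups did not overlap, and it was lower in EBD6 than in EBD2 by 1.26-fold (log2 -0.33, SE 0.07, adjusted p = 0.0016). Its rise from EBD5 to EBD6 turned to a fall after GC and length bins. Cbx2 was at 72.0 and 83.9 CPM in EBD2, 37.8, 38.9 and 39.1 CPM in EBD5 and 76.8 and 83.5 CPM in EBD6. Its EBD5 samples were far below both other groups, which overlapped each other, and the log2 changes of -1.03 into EBD5 (SE 0.09, adjusted p = 1.5e-06) and 1.06 out of it (SE 0.08, adjusted p = 1.0e-06) became -0.65 and 0.41 after the bins. Cbx6 was lowest in EBD5 too, from 147 ± 6.10 CPM (n = 2) to 73.6 ± 0.996 (n = 3) and 129 ± 11.0 (n = 2).

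Cbx8, a CBX protein known to be switched on during differentiation, had the lowest level of the family and the largest relative changes. It was at 3.17 and 5.49 CPM in EBD2, 1.08, 1.17 and 1.51 CPM in EBD5 and 7.57 and 9.38 CPM in EBD6, and the groups did not overlap. From EBD5 to EBD6 it rose 6.91-fold (log2 2.79, SE 0.30, adjusted p = 9.2e-06), and from EBD2 to EBD6 1.90-fold (log2 0.92, SE 0.25, adjusted p = 0.0068). These values rest on 84 counts in EBD2, 21 in EBD5 and 264 in EBD6, and the SE is the largest of the 36 genes.

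Pcgf2 (Mel18), a RING finger partner of Ring1 and Rnf2 in canonical PRC1, was at 113 and 113 CPM in EBD2, 39.9, 44.6 and 46.1 CPM in EBD5 and 91.2 and 97.8 CPM in EBD6. The EBD5 samples were far below both other groups, which did not overlap each other. The fall into EBD5 was 2.60-fold (log2 -1.38, SE 0.07, adjusted p = 5.6e-08), or -1.12 after the bins, and EBD6 remained below EBD2 by 0.27 on the log2 scale (SE 0.07, adjusted p = 0.0081). Its paralog Bmi1 was at 49.0 ± 2.62 CPM in EBD2 (n = 2), 49.4 ± 2.80 in EBD5 (n = 3) and 51.6 ± 1.30 in EBD6 (n = 2), with log2 differences of at most 0.06 and no call. After the bins, however, Bmi1 was called lower in EBD5 (-0.38) and higher in EBD6 than in EBD5 (0.69) and in EBD2 (0.31). Of the SAM domain proteins that associate with canonical PRC1, Scml2 fell from 8.39 ± 0.0961 CPM in EBD2 (n = 2) to 3.998 ± 0.0753 in EBD6 (n = 2), a log2 change of -1.07 (SE 0.23, adjusted p = 0.0020) with EBD5 between at 5.74 ± 1.61 (n = 3). Scmh1 was at 36.8 ± 3.29, 39.7 ± 0.505 and 45.5 ± 5.82 CPM, higher in EBD6 than in EBD2 by 0.32 (SE 0.10, adjusted p = 0.018).

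In variant PRC1, Rybp and Yaf2, paralogs that take the place of the CBX protein, both rose from EBD2 to EBD5, and in EBD6 Rybp was below and Yaf2 above EBD2. Rybp (chr6:100228565-100287485, minus strand) was at 99.2 and 105 CPM in EBD2, 179, 185 and 190 CPM in EBD5 and 70.6 and 87.9 CPM in EBD6. It was highest in all EBD5 samples and lowest in both EBD6 samples, a rise of 0.86 (SE 0.08, adjusted p = 5.2e-06) followed by a fall of -1.25 (SE 0.09, adjusted p = 3.7e-07), or 0.65 and -0.89 after the bins. Yaf2 was at 21.5 and 23.6 CPM in EBD2, 35.1, 44.4 and 47.0 CPM in EBD5 and 33.5 and 38.2 CPM in EBD6. It was above EBD2 in all samples of EBD5 and EBD6, which overlapped each other, and from EBD2 to EBD6 it rose by 0.66 (SE 0.14, adjusted p = 0.0013) while Rybp fell by 0.40 (SE 0.09, adjusted p = 0.0032). After the bins the rise of Yaf2 to EBD5 was 0.39 and that to EBD6 0.97, and Yaf2 was called higher in EBD6 than in EBD5 (0.58, adjusted p = 0.00068), where the difference before the bins was -0.26 (adjusted p = 0.074).

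Among the PCGF proteins that define the variant complexes, Pcgf5 alone rose by more than 1.5-fold from EBD2 to EBD6. Pcgf5 (chr19:36348309-36460970, plus strand), whose complexes ubiquitinate H2A broadly, was at 30.8 and 32.3 CPM in EBD2, 73.9, 77.6 and 85.6 CPM in EBD5 and 77.5 and 77.9 CPM in EBD6. EBD5 and EBD6 lay far above EBD2 and overlapped each other. The rise to EBD5 was 2.50-fold (log2 1.32, SE 0.08, adjusted p = 2.0e-07) and that to EBD6 2.45-fold (log2 1.29, SE 0.09, adjusted p = 2.9e-07), or 0.98 and 1.48 after the bins. Pcgf3, its close relative, was at 162 ± 8.90 CPM in EBD2 (n = 2), 207 ± 11.22 in EBD5 (n = 3) and 163 ± 2.23 in EBD6 (n = 2), with a log2 difference of EBD6 from EBD2 of 0.01 (SE 0.07, adjusted p = 0.95). Pcgf6 and Pcgf1, which define the complexes of L3mbtl2 and of Kdm2b, were highest in EBD2. Pcgf6 was at 103 ± 5.98, 75.1 ± 4.27 and 84.9 ± 2.06 CPM, lower in EBD6 than in EBD2 by -0.28 (SE 0.07, adjusted p = 0.0058), and Pcgf1 at 15.0 ± 0.728, 12.2 ± 0.413 and 13.5 ± 0.0826 CPM, with no call between EBD2 and EBD6 (-0.16, SE 0.13, adjusted p = 0.29).

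The targeting subunits of variant PRC1 were all lower in EBD6 than in EBD2 or did not pass the test. Kdm2b, which binds unmethylated CpG dinucleotides through a CXXC domain, was at 153 and 155 CPM in EBD2, 143, 159 and 159 CPM in EBD5 and 114 and 115 CPM in EBD6. EBD5 did not differ beyond the spread, and both EBD6 samples were below all others (-0.43 from EBD5, SE 0.06, adjusted p = 0.00010). Bcor, the co-repressor of the Pcgf1 complex, was at 180 ± 11.9 CPM in EBD2 (n = 2), 118.2 ± 0.411 in EBD5 (n = 3) and 168 ± 8.99 in EBD6 (n = 2). It fell into EBD5 (-0.61, SE 0.06, adjusted p = 7.6e-06) and differed by -0.10 between EBD6 and EBD2 (adjusted p = 0.22). L3mbtl2, a reader of the Pcgf6 complex, was lowest in EBD5 too, at 188 ± 8.20, 119 ± 3.73 and 165 ± 0.119 CPM. After the bins L3mbtl2 was lower than in EBD2 by similar amounts in EBD5 (-0.46) and EBD6 (-0.47). Its rise from EBD5 to EBD6 was then lost (-0.0118), while that of Bcor was kept (0.26). Of the exons of L3mbtl2, 17.2% lie over those of Chadl on the other strand.

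The deubiquitinase PR-DUB removes the mark that PRC1 sets. Its catalytic subunit Bap1 was at 102 and 113 CPM in EBD2, 120, 123 and 125 CPM in EBD5 and 144 and 148 CPM in EBD6, with no overlap of groups, a rise of 0.45 from EBD2 to EBD6 (SE 0.07, adjusted p = 0.00014) that was 0.23 after the bins and still called. Its activating partner Asxl1 was at 301 and 315 CPM in EBD2, 222, 229 and 234 CPM in EBD5 and 225 and 225 CPM in EBD6. The EBD2 samples were above all others, and the change to EBD6 was -0.45 (SE 0.06, adjusted p = 8.7e-05), or -0.58 after the bins. The subunits of PR-DUB thus moved apart.

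Read as shares of a family's level per kilobase, these changes describe which paralog was most abundant. Phc1 made up 93.5 ± 0.707% of the polyhomeotic family in EBD2 (n = 2), 91.9 ± 0.0606% in EBD5 (n = 3) and 78.9 ± 1.52% in EBD6 (n = 2), while Phc2 went from 2.51 ± 0.459% to 3.87 ± 0.275% and 17.9 ± 1.26%. Phf19 went from 3.59 ± 0.0721% of the Polycomb-like family to 4.93 ± 0.505% and 16.9 ± 2.89%, and Mtf2 from 91.5 ± 0.990% to 92.4 ± 0.707% and 74.6 ± 3.80%. Phc1 and Mtf2 thus remained the most abundant of their families in every group. Yaf2 was the lesser of its pair in EBD2 (35.8 ± 0.514%) and EBD5 (36.5 ± 3.51%) and the greater in EBD6 (53.5 ± 1.54%). Ezh2 rose from 67.6 ± 0.175% of the methyltransferase pair to 77.7 ± 0.626% and 81.0 ± 2.54%. Pcgf2 held 72.2 ± 1.09% of its pair with Bmi1 in EBD2, 49.8 ± 3.24% in EBD5 and 67.4 ± 0.524% in EBD6. Pcgf5 went from 2.67 ± 0.114% of all 6 PCGF genes to 8.33 ± 0.573% and 6.99 ± 0.162%. With so few samples an exact two-sided permutation test of such a share cannot give a p below 0.2 (2 against 3) or 0.333 (2 against 2), so no test is given. The shares depend on the length used: with the longest transcript, Phc2 held 3.50%, 5.36% and 23.4% of its family and Yaf2 34.7%, 35.3% and 52.2% of its pair. Pcgf2 then held 76.9%, 56.0% and 72.6% of its pair, so which of Pcgf2 and Bmi1 led in EBD5 depended on the length used.

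**Figure D4:**
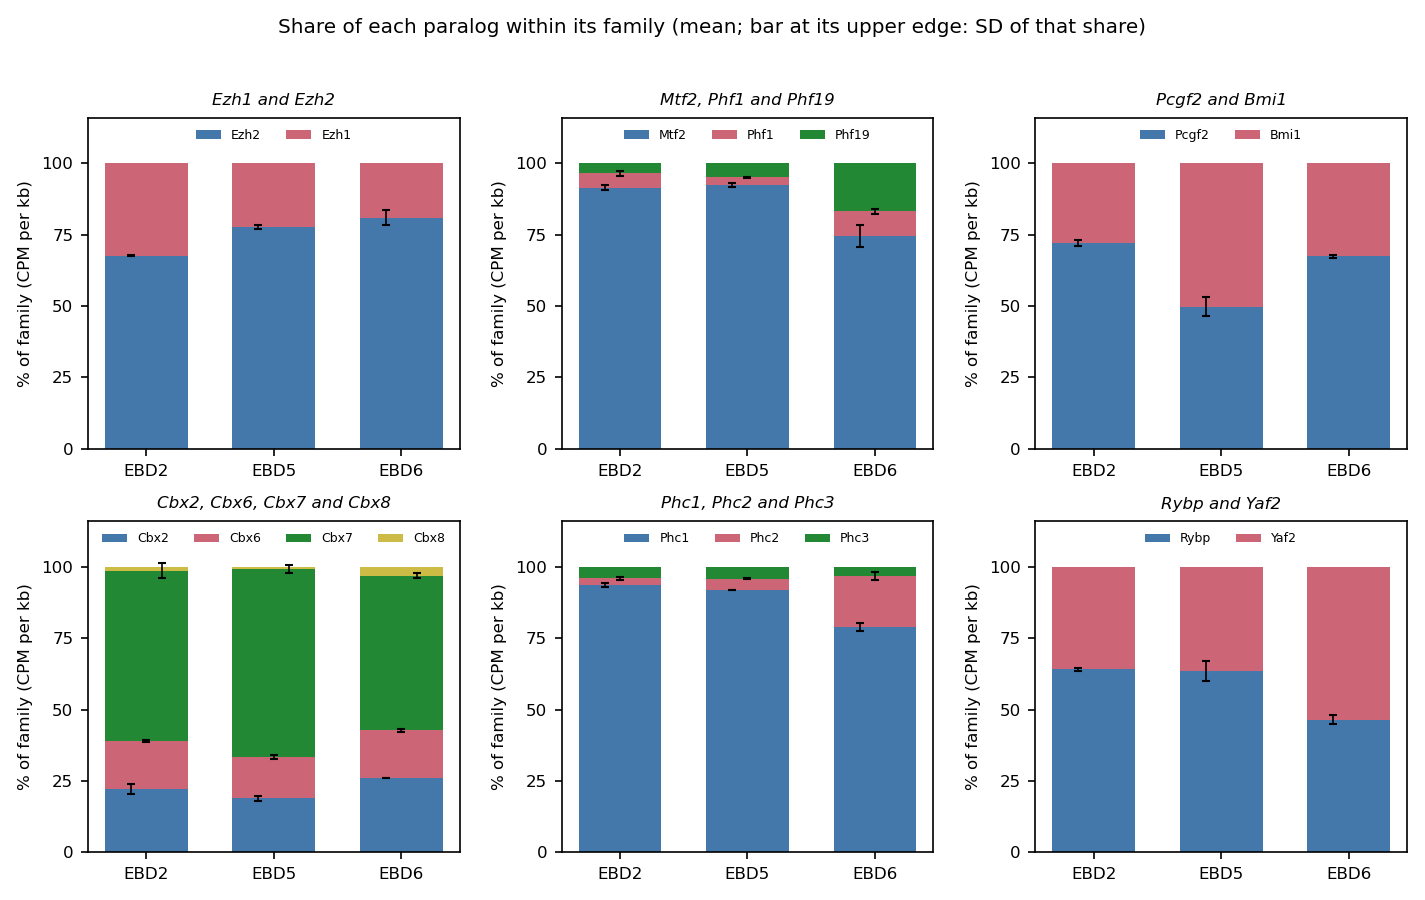
Share of each paralog in the summed level per kilobase of exon of its family (y axis, percent) in EBD2, EBD5 and EBD6, as stacked means of 2, 3 and 2 samples with the SD of a share as a bar at its upper edge (not drawn for the topmost paralog). Phc2, Phf19 and Yaf2 take larger shares in EBD6 than in the earlier groups, at 17.9%, 16.9% and 53.5%.

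A further list held partners of Polycomb complexes outside the 36 genes. Of 29 such genes listed, 28 were matched and tested. Between EBD2 and EBD6 7 were higher and 10 lower (33.8% and 32.3% of all genes were). Between EBD2 and EBD5 the counts were 9 and 10 (34.9% and 35.1% of all genes). Between EBD5 and EBD6 they were 11 and 12 (36.9% and 33.3% of all genes). The median log2 changes were -0.02, -0.01 and -0.02 in the same order. Sfmbt2, a Polycomb-related protein needed in extraembryonic tissue, had the largest rise, from 29.1 ± 2.82 CPM in EBD2 (n = 2) to 149 ± 3.76 in EBD5 (n = 3) and 200.2 ± 2.15 in EBD6 (n = 2), 6.78-fold in all (log2 2.76, SE 0.08). Mga, which with Max anchors the Pcgf6 complex on DNA, fell from 772 ± 35.0 CPM in EBD2 to 325 ± 8.70 in EBD6 (log2 -1.25, SE 0.08), and the PRC2 partners Lcor and Lcorl fell by 1.84-fold and 1.98-fold.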

How the data were processed

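The authors deposited RSEM expected counts per gene, which are estimates and need not be whole (90.9% to 94.6% of values per library were). Per the labels' protocols, RNA was extracted with Trizol, its polyadenylated part taken on oligo-dT beads, and libraries built with the KAPA RNA Hyperprep kit. The submitters' processing notes list, with neither role nor order, the build mm10 and the tools STAR (2.7.10a), cutadapt (1.18), RSEM (1.3.30), DESeq2 (1.38.3) and edgeR (3.40.2). Which annotation release was used, and whether strand was, is not given in the sources used here. Gene symbols and positions were taken from GENCODE M21, which held 99.9% of the gene IDs. One row that names no gene, with at most 0.0157% of a library's counts, was left out.

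Counts were rounded to whole numbers, and near-identical libraries were summed, which left 7 samples and 4 residual degrees of freedom. Genes passing edgeR's expression filter (16168 of 54232, all 36 Polycomb genes among them) were fitted together over the 3 groups with edgeR 4.0.16 in R 4.3.3 (TMM scaling, quasi-likelihood F test, Benjamini-Hochberg adjustment over all genes tested). A gene was called at an adjusted p under 0.05, and all adjusted p-values given come from this fit unless another is named. The common biological coefficient of variation was 6.72%. The SE is the log2 change divided by the square root of F. CPM use TMM-scaled library sizes. Alternatives used DESeq2 1.42.0, limma 3.58.1 with voom, other scalings, filters and groupings of libraries, a test against a fold of 1.5, GC and length bins, and leaving out each library. When a group is left with 1 sample, that sample is assumed to vary like the other groups. The fit was run on simulated data in which few genes changed, all of them in EBD5. Most genes were called in the real data, so that run does not speak for the calls given here. All 36 genes are described by complex, other lists by up to 4 genes per comparison with the largest called change at 5 CPM or more. The members and lists were chosen with earlier results of these data known.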

Additional observations from a re-analysis of the deposited data

How the results depend on the processing

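Across the alternatives run, the changes from EBD2 to EBD6 of Phc2 (1.69 to 2.21 on the log2 scale), Phf19 (1.72 to 2.13), Pcgf5 (1.26 to 1.48), Phc1 (-1.13 to -0.88), Phc3 (-1.002 to -0.90), Ezh1 (-0.87 to -0.78) and Scml2 (-1.16 to -0.96) kept direction and call. Asking for a change beyond 1.5-fold left 2972 higher genes and 2634 lower genes for EBD5 against EBD2 (Polycomb genes 3 and 4), 2844 and 2473 in EBD6 against EBD5 (9 and 3), and 2655 and 2263 in EBD6 against EBD2 (3 and 4). GC and length bins left 7 Polycomb genes higher in EBD5 than in EBD2, against 12. Without a filter on low counts 33137 genes were tested and the median change of all genes moved to 0.24 (EBD6 against EBD5) and 0.19 (EBD6 against EBD2). With EBD5 replicates 1 and 3 summed, edgeR's test lost Pcgf1 (adjusted p = 0.085) and Rbbp4 (0.076) for EBD5 against EBD2. For EBD6 against EBD5 it lost Ezh2 (0.083), Rbbp4 (0.080) and Pcgf6 (0.12) and gained Scml2 (0.039) and Yaf2 (0.046). For EBD6 against EBD2 it lost Cbx6 (0.062) and Rbbp7 (0.054).

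Directions turned, outside the bins, only for genes that were not called, and the values were close to 0. For EBD5 against EBD2, Kdm2b became 0.0104 with DESeq2's size factors, 0.0472 with scaling on nuclear protein-coding genes, 0.0103 with DESeq2, 0.0116 with a filter at 5 CPM, 0.0101 with 9 separate libraries and 0.0126 with EBD5 replicates 1 and 3 summed; Phc3 became 0.0218 with the nuclear scaling, and Bmi1 -0.00134 with limma and -0.000114 without a filter. For EBD6 against EBD2, Pcgf3 became -0.00799 (size factors), -0.0209 (nuclear), -0.00809 (DESeq2) and -0.0104 (compared groups only), and Rbbp4 -0.00954, -0.0244, -0.00864 and -0.00993 in the same settings and -0.017 with 9 libraries. For EBD6 against EBD5, Bmi1 (-0.0245) and Aebp2 (-0.0236) turned with the nuclear scaling, and Pcgf5 (0.0279), Jarid2 (0.0373) and Asxl1 (0.0300) without a filter. With the bins, Suz12 (-0.14), Bmi1 (-0.38), Mtf2 (-0.19), Kdm2b (0.12), Aebp2 (-0.12), Phc1 (0.0199) and Epop (0.22) turned for EBD5 against EBD2, Bap1 (-0.23), L3mbtl2 (-0.0118), Yaf2 (0.58), Pcgf5 (0.49), Rnf2 (0.25), Rbbp7 (0.22), Cbx7 (-0.35) and Rbbp4 (0.0190) for EBD6 against EBD5, and Ring1 (-0.0143) and Cbx2 (-0.24) for EBD6 against EBD2; the cause was not tested. Leaving out 1 library gave ranges across 0 for Kdm2b (-0.0245 to 0.0480), Bmi1 (-0.0458 to 0.0501) and Phc3 (-0.0545 to 0.0121) in EBD5 against EBD2, for Pcgf3 (-0.00177 to 0.0565), Rbbp4 (-0.0821 to 0.0462) and Cbx2 (-0.0600 to 0.105) in EBD6 against EBD2, and for Pcgf5 (-0.0807 to 0.0293), Rbbp7 (-0.168 to 0.00245) and Aebp2 (-0.0178 to 0.0700) in EBD6 against EBD5. Calls were gained for Mtf2 (0.18) and Suz12 (0.14) in EBD5 against EBD2 and Scmh1 (0.34) in EBD6 against EBD5 without EBD6 replicate 1, and for Scml2 (-0.71) and Yaf2 (-0.38) in EBD6 against EBD5 without EBD5 replicate 3.

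The replicate numbers did not pair the samples: correlations of deviations of same-numbered libraries ran from -0.316 to 0.133. With the replicate number as a block, fitted on the 9 separate libraries, EBD5 against EBD2 gave 5821 genes higher and 5691 lower, and the counts were 6071 and 5607 in EBD6 against EBD5, and 5832 and 5620 in EBD6 against EBD2. Among the Polycomb genes the block turned Kdm2b to 0.00925 and Rbbp4 to -0.0167, both uncalled. It lost the calls of Scml2 (EBD5 against EBD2, adjusted p = 0.051) and Pcgf6 (EBD6 against EBD5, 0.058) and gained those of Mtf2 (0.028) and Suz12 (0.039) in EBD5 against EBD2 and of Scmh1 (0.032) and Yaf2 (0.022) in EBD6 against EBD5.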

Other observations

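Genes that oppose Polycomb, the H3K27 demethylases and the Trithorax-type methyltransferases and remodellers, were lower in EBD6 than in EBD2 in 12 of 17 cases and higher in 4. Of all genes tested, 32.3% were lower and 33.8% higher. The median log2 change of the list was -0.44, against 0.01 over all genes. This list was chosen with earlier results of these data known, so its counts describe these 17 genes and support nothing further. Values after GC and length bins are not given for it. Ash2l, a shared subunit of the H3K4 methyltransferases, fell from 689.5 ± 95.5 CPM in EBD2 (n = 2) to 285 ± 22.6 in EBD6 (n = 2), a log2 change of -1.28 (SE 0.10). The methyltransferases Kmt2c (-0.93, SE 0.07) and Kmt2a (-0.85, SE 0.07) and the subunit Dpy30 (-0.78, SE 0.09) fell with it. Between EBD2 and EBD5, 2 were higher and 10 lower (34.9% and 35.1% of all genes), the largest change being that of Cxxc1, a CpG-binding subunit, from 87.9 ± 1.48 to 34.6 ± 1.69 CPM. Between EBD5 and EBD6 7 were higher and 6 lower (36.9% and 33.3% of all genes), and the demethylase Kdm6b rose from 75.7 ± 6.76 to 147 ± 23.7 CPM.

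Of 22 developmental regulators that Polycomb is known to hold silent in stem cells, 15 passed the filter on low counts. Members that passed it only through the group in which they are high had to differ, so these counts describe the genes that passed and support nothing further. From EBD2 to EBD6 9 were higher and 2 lower (33.8% and 32.3% of all genes). From EBD2 to EBD5 the counts were 5 and 7 (34.9% and 35.1% of all genes). From EBD5 to EBD6 they were 12 and 1 (36.9% and 33.3% of all genes). Gata4, an endoderm and heart regulator, was at 10.4 ± 0.247 CPM in EBD2 (n = 2), 93.4 ± 2.65 in EBD5 (n = 3) and 114 ± 7.22 in EBD6 (n = 2), and Gata6 at 2.81 ± 0.491, 54.0 ± 3.53 and 42.2 ± 4.32 CPM. Cdx2, a regulator of trophectoderm and posterior identity, was at 0 in EBD2, 0.673 ± 0.485 CPM in EBD5 and 15.1 ± 1.74 CPM in EBD6. Olig2, a neural regulator, fell from 29.7 ± 3.58 CPM in EBD2 to 6.28 ± 0.237 in EBD5, and Hoxd13, a limb regulator, from 10.8 ± 1.80 to 1.49 ± 0.187 CPM.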
